A study of Mus musculus with 10 samples.

Results

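The first days of factor-induced reprogramming were described here by the step from day 1 to day 3 in mouse embryonic fibroblasts (MEFs). The members were the 4 libraries of day 1 and day 3, out of 10 in the series, chosen by their labels: OKS + DsRed day 1, OKS + DsRed day 3, OKS + FoxO6 day 1 and OKS + FoxO6 day 3. All cells were MEFs of CBA/CaJ X C57BL/6J embryos at E13.5. They were infected with retrovirus from PlatE cells, which carried Oct4, Klf4 and Sox2 (OKS) in both arms, and were cultured in iCD1 medium. The control arm also received DsRed, a red fluorescent protein, and the other arm the forkhead factor FoxO6. Each arm and day was 1 library, so the arms stood in for replicates: the question was which genes changed from day 1 to day 3 whichever of DsRed or FoxO6 was added. The difference between the arms was not the subject.

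Fibroblasts that receive these factors first lose part of the fibroblast programme: collagens, contractile actin genes and mesenchymal surface proteins. A mesenchymal to epithelial transition (MET) follows, in which junction proteins such as E-cadherin appear, and the pluripotency network of embryonic stem cells is activated last. The interval from day 1 to day 3 lies early in this order. Bulk RNA of a mixed culture was measured, so fewer cells of one type and less RNA per cell cannot be told apart.

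The 4 libraries held between 1461253 and 1980942 expected counts, and 15498 to 15963 genes had at least 1 count. This is shallow, and genes of few counts are given with their counts. The transduced factors checked the labels. Foxo6 was at 3 counts in both OKS + DsRed libraries and at 2781 and 3375 counts in OKS + FoxO6 on day 1 and day 3. Pou5f1 (Oct4) stood at 4168 and 4569 TPM, a level scaled for transcript length and depth, in OKS + DsRed on day 1 and day 3 and at 4742 and 5464 TPM in OKS + FoxO6. Sox2 stood at 2342, 2698, 2840 and 3109 TPM in the same order. Neither was called different between the days (adjusted p = 0.237 for Pou5f1 and 0.27 for Sox2). Klf4 rose by 0.32 ± 0.08 (log2, SE, n = 4 libraries, adjusted p = 0.00131), from 2290 to 2964 TPM in OKS + DsRed and from 2323 to 3094 TPM in OKS + FoxO6. The call of Klf4 was lost with all 10 libraries (adjusted p = 0.506). Reads of the transgene and of the cell's own gene were not separated.

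Of 11035 genes tested with edgeR, 605 rose (5.48%) and 466 fell (4.22%) from day 1 to day 3 at an adjusted p under 0.05. Among these 1071 genes, 14 moved in opposite directions in the arms. The stricter group was the genes that were called and also moved at least 2-fold the same way in each arm. These were 179 genes that rose (1.62% of the genes tested) and 88 that fell (0.797%). The design has 1 residual degree of freedom, and the counts depended on how the spread was estimated. With no replicate block for the arm, no gene was called, although 788 had an unadjusted p under 0.05. With the spread taken from all 10 libraries, 74 of the 179 and 41 of the 88 were still called. DESeq2 called 75 and 36 of them, and 55 and 33 were called by all 3 fits. Leaving out a library of the 10 left 1 rise and 1 fall without OKS + DsRed day 1, 6 and 8 without OKS + DsRed day 3, 15 and 16 without OKS + FoxO6 day 1, and 95 and 12 without OKS + FoxO6 day 3. The spread of a gene was moderated across genes, with 86.1 prior beside 1 residual degree of freedom. The p-values and SE of this fit thus rest mainly on a spread shared by all genes. They hold no spread between replicate cultures, and an SE can be smaller than the gap between the arms.

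**Figure D1:**
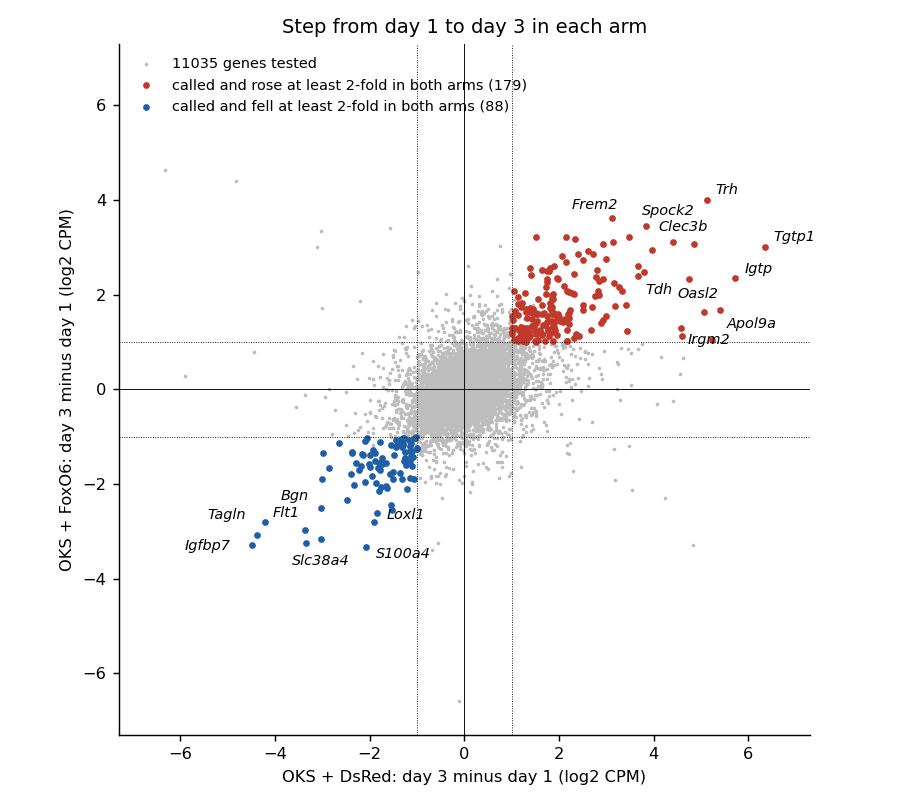
The step of each of the 11035 genes tested in OKS + DsRed (x axis) and OKS + FoxO6 (y axis), as day 3 minus day 1 in log2 CPM, counts scaled for library size. Dotted lines mark 2-fold; the 179 genes in red rose and the 88 in blue fell at least 2-fold in both arms, and Trh (5.12 and 4.01) and Igfbp7 (-4.49 and -3.29) lie near the ends.

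Promoters are shown for 6 of the genes described below, as they hold motifs of factors known for these gene groups. Each is the 250 bases before the RefSeq gene start in GRCm38.p6, on the strand of the gene. Capitals mark a GAS element, the site of phosphorylated STAT dimers, and a core of the interferon-stimulated response element (ISRE) in Tgtp1, Igtp and Irgm2. In Ifit1 and Apol9a they mark ISRE cores alone, which overlap each other in Apol9a, and in Myl9 a CArG box, the site of serum response factor. The windows are chr11:48992247-48992496 (minus strand) for Tgtp1, chr11:58199306-58199555 (plus) for Igtp, chr11:58214727-58214976 (plus) for Irgm2, chr19:34640639-34640888 (plus) for Ifit1, chr15:77411081-77411330 (minus) for Apol9a and chr2:156775214-156775463 (plus) for Myl9.
Tgtp1: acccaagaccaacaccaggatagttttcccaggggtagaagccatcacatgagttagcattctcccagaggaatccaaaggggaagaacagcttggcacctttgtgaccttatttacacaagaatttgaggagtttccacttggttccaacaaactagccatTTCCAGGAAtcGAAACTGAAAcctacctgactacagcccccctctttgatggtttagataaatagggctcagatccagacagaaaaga
Igtp: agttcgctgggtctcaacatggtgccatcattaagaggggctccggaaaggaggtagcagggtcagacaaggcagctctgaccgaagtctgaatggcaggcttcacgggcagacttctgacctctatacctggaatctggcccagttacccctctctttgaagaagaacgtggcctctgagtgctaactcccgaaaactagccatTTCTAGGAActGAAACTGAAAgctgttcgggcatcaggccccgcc
Irgm2: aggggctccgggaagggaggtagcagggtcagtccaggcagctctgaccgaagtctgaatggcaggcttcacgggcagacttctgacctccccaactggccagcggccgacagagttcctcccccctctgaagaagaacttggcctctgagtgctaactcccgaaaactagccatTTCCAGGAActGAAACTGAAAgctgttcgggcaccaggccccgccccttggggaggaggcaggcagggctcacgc
Ifit1: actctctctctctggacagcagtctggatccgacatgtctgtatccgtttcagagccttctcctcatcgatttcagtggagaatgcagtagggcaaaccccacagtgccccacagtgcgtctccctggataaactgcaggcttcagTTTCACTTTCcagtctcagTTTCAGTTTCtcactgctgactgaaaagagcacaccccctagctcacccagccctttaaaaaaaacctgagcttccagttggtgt
Apol9a: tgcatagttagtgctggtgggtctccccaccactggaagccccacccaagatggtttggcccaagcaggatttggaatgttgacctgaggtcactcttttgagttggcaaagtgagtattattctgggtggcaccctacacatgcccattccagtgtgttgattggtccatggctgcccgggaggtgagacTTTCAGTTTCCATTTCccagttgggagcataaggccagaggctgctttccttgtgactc
Myl9: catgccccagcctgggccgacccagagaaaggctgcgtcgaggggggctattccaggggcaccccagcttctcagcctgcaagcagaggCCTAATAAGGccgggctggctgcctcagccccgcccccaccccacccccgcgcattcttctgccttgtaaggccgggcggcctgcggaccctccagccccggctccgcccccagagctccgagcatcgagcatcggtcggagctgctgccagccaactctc

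In Tgtp1, Igtp and Irgm2 the GAS element (TTCNNNGAA) was followed by the ISRE core (GAAA, any 2 bases, GAAA), which began 11 bases after the first base of the GAS. The GAS began 88, 45 and 75 bases before the start of Tgtp1, Igtp and Irgm2. Of 8371 genes tested with a promoter in the RefSeq table, these 3 were the only ones with this spacing, and 31 (0.37%) held both motifs anywhere in the 250 bases. The spacing searched was that of these 3 promoters, so their own match was fixed beforehand and is no test. The windows of Igtp and Irgm2 are also alike over much of their length. These counts describe letters, and binding was not measured.

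The 12 largest falls included growth factor binding, transport, receptor, matrix and contractile genes. Igfbp7 (chr5:77349240-77408041), a secreted protein that binds insulin-like growth factors, had 109 and 3 counts in OKS + DsRed on day 1 and day 3 and 132 and 14 counts in OKS + FoxO6. That is 35.2-fold lower in OKS + DsRed (95% interval of the counts 11.7 to 173) and 11.3-fold lower in OKS + FoxO6 (6.5 to 21.2). The fitted change was -3.98 ± 0.33 (log2, SE, n = 4 libraries, adjusted p = 1.23e-17). Slc38a4, an imprinted amino acid transporter, went from 48 to 3 and from 57 to 5 counts. Flt1, a receptor of VEGF, went from 49 to 3 and from 40 to 4 counts, and Flt4, a receptor of the same family, from 33 to 10 and from 39 to 6. The call of Flt4 was lost with all 10 libraries (adjusted p = 0.0952) and by DESeq2 (0.204).

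Tagln (chr9:45929619-45936058), the actin-binding protein transgelin of smooth muscle and myofibroblasts, stood at 95.1 and 3.54 TPM in OKS + DsRed and at 97.7 and 13.04 TPM in OKS + FoxO6. It fell by 3.50 ± 0.31 (log2, SE, adjusted p = 9.18e-16). Acta2, smooth muscle actin, stood at 304 and 40.6 TPM in OKS + DsRed and 232 and 72.8 TPM in OKS + FoxO6, and fell by 2.23 ± 0.19 (adjusted p = 1.08e-16). Myl9, the regulatory light chain of myosin, fell from 29 to 2 and from 18 to 7 counts (adjusted p = 0.0019). Tpm2, a tropomyosin, fell from 152 to 39.9 TPM and from 103 to 32.7 TPM. Of the 24 contractile and actin genes listed, 22 were tested: 14 fell, 8 had no call and none rose, with a median of -0.58 beside 0.01 over all genes tested. Tagln2, Zyx, Myh10, Csrp1, Flnc, Actn1, Flna, Tpm1, Cald1 and Tpm4 were the other genes that fell, between -1.08 and -0.36. Of the 22 genes, 6 fell with all 10 libraries, 6 fell by DESeq2, and 1 was higher at an unadjusted p under 0.05. A CArG box was in the promoters of 4 of 20 contractile genes, Myl9, Cnn2, Vcl and Srf, of which only Myl9 was called; 1.13% of all promoters held it. This motif was added after the values were seen.

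Matrix genes moved the same way in most cases. Of 33 tested among 38 listed, 17 fell, 4 rose and 12 had no call, with a median of -0.60; 22 were lower in both arms. Bgn (chrX:73483602-73495933), the proteoglycan biglycan, stood at 395 and 45.2 TPM in OKS + DsRed and 422 and 74.0 TPM in OKS + FoxO6, and fell by 2.76 ± 0.16 (log2, SE, adjusted p = 1.26e-26). Loxl1, which crosslinks elastin, fell from 60 to 15 and from 41 to 6 counts. Fbln5, an elastic fibre protein, fell from 101 to 21.1 TPM and from 44.3 to 13.3 TPM. Col12a1, a collagen of the fibril surface, fell from 64.0 to 10.4 TPM and from 27.7 to 10.6 TPM. Col1a1 (chr11:94936224-94953042), the main chain of type I collagen, went from 453 to 125 TPM in OKS + DsRed and from 256 to 64.9 TPM in OKS + FoxO6, a change of -1.93 ± 0.12 (adjusted p = 4.2e-24). The 4 matrix genes that rose were Col4a1 (0.58), Col4a2 (0.80), Col6a1 (0.47) and Col8a1 (1.02), which include both main chains of basement membrane collagen IV. Fitted with all 10 libraries, 8 matrix genes fell and none rose; DESeq2 called 13 falls and 1 rise. Emilin2, a glycoprotein of elastic fibres, fell from 54 to 9 and from 67 to 18 counts, and Serpinf1, the secreted factor PEDF, from 66 to 10 and from 72 to 15. Vcan, the proteoglycan versican, chosen after its values were seen, went from 887 to 301 and from 595 to 212 counts.

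Of 16 matrix proteases and inhibitors tested, 4 fell and 1, Adam19, rose, while 6 were lower and 4 higher in both arms. The inhibitors of metalloproteinases Timp1, Timp2 and Timp3 fell by 1.00, 0.68 and 0.70 (log2), Timp1 from 596 to 279 TPM and from 683 to 369 TPM. Adamts12, a protease of cartilage matrix, fell from 37 to 12 and from 11 to 5 counts, at the edge of the threshold (adjusted p = 0.0499). Timp1 alone was called with all 10 libraries.

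Genes of the mesenchymal state fell in part. S100a4 (chr3:90603771-90606045), a calcium-binding protein used as a fibroblast marker, stood at 540 and 125 TPM in OKS + DsRed and 450 and 40.1 TPM in OKS + FoxO6. It fell by 2.69 ± 0.24 (log2, SE, adjusted p = 5.37e-16). Thy1 (chr9:44043384-44048579), the surface protein whose loss is commonly used to sort cells early in reprogramming, stood at 149 and 23.7 TPM in OKS + DsRed and 146 and 20.3 TPM in OKS + FoxO6, a change of -2.44 ± 0.26 (adjusted p = 8.87e-13). Pdgfrb, a receptor of platelet-derived growth factor, fell from 17 to 6 and from 60 to 22 counts, a call lost with all 10 libraries (adjusted p = 0.115) and by DESeq2 (0.651). Of 19 mesenchymal genes tested, 8 fell and 1 rose, while 2 fell and 1 rose with all 10 libraries and 3 fell and 1 rose by DESeq2. The one that rose was Nt5e (CD73), a surface enzyme that makes adenosine, from 86.2 to 214 TPM and from 44.4 to 122 TPM (1.47 ± 0.15, adjusted p = 8.87e-13). The transcription factors Twist1 (-0.48, adjusted p = 0.0759), Twist2 (-0.57, 0.407), Zeb1 (-0.27, 0.472) and Zeb2 (0.49, 0.181) had no call, and Prrx1 fell by 0.75. Vim, vimentin, stood at 3342 and 2173 TPM in OKS + DsRed and at 2068 and 2055 TPM in OKS + FoxO6, and fell by 0.38 (adjusted p = 0.00154), a call lost with all 10 libraries (0.445) and by DESeq2 (0.693). Of the 12 fibroblast markers 10 fell and none rose; the markers summed to 7916 and 4849 TPM in OKS + DsRed and 5555 and 4662 TPM in OKS + FoxO6. Of these 12, 3 were called with all 10 libraries. Cav1, the coat protein of caveolae, chosen after its values were seen, went from 370 to 78 and from 309 to 118 counts.

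**Figure D2:**
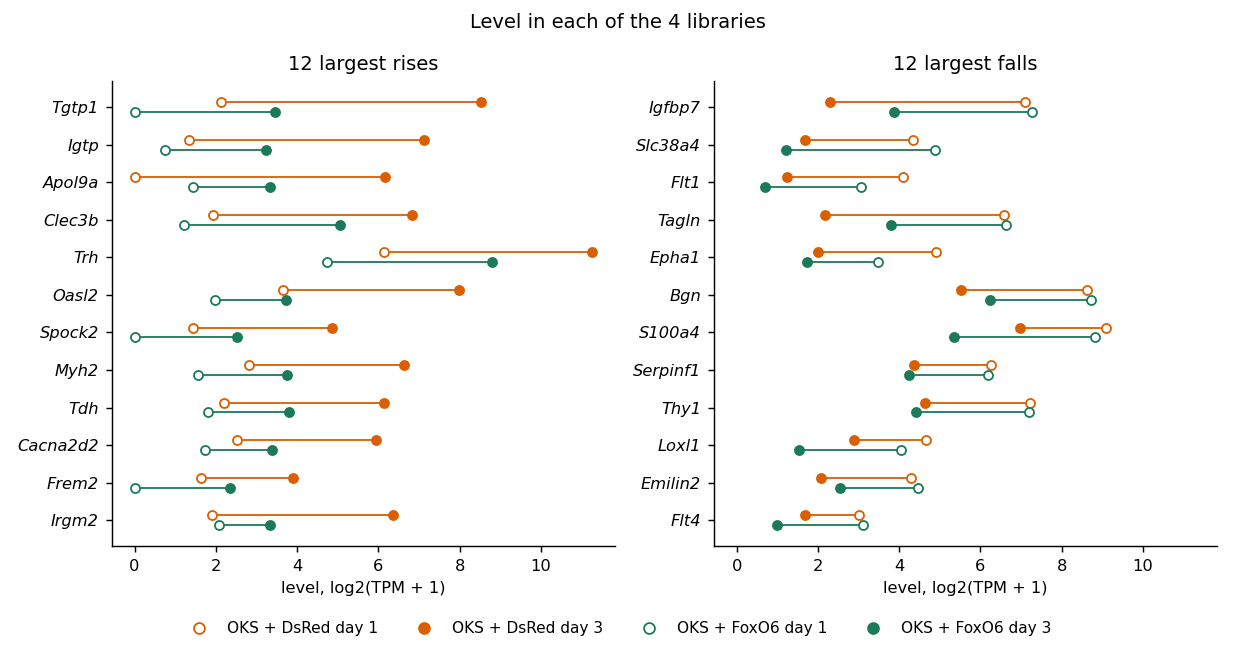
Level of the 12 genes with the largest rises and the 12 with the largest falls in each of the 4 libraries, as log2(TPM + 1). Open circles are day 1 and filled circles day 3, orange for OKS + DsRed and green for OKS + FoxO6. The genes were chosen for moving at least 2-fold the same way in both arms, and Trh on day 3 in OKS + DsRed (2467 TPM) is the highest point among the rises.

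Growth factors and imprinted genes of the embryo were lower on day 3 in part. Igf2 (chr7:142650766-142666816), the fetal insulin-like growth factor, stood at 496 and 79.5 TPM in OKS + DsRed and 644 and 171 TPM in OKS + FoxO6, and fell by 2.08 ± 0.14 (log2, SE, adjusted p = 6.49e-23). Dlk1, a Notch-related surface protein, went from 51.1 to 18.0 TPM and from 51.1 to 19.8 TPM, and Mest, a hydrolase of the mesoderm, from 116 to 39.0 TPM and from 91.7 to 47.2 TPM. In this list of 22 genes, 21 were tested, 7 fell and 2 rose, with a median of -0.20. Igfbp5 (0.96) and Meg3 (0.59), the long RNA of the Dlk1 locus, were those that rose. Of the 7 falls, 4 were called with all 10 libraries. Fst, follistatin, which binds activin, was chosen after its values were seen; it went from 726 to 188 counts in OKS + DsRed and from 593 to 278 in OKS + FoxO6. Epha1, a receptor of ephrins, fell from 71 to 7 and from 27 to 7 counts.

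Among the rises, the pluripotency list is mostly below the reach of this depth. Of 25 genes only 5 passed the filter on low counts, and 7 were at 0 counts in all 4 libraries, among them Dppa5a, Lin28a, Tdgf1 and Utf1. Since a gene silent on day 1 passes only through day 3, the share that rose is not read as support. Tdh (chr14:63492347-63509092), threonine dehydrogenase, on which mouse embryonic stem cells depend, stood at 3.63 and 69.1 TPM in OKS + DsRed and 2.49 and 12.98 TPM in OKS + FoxO6. It rose by 3.82 ± 0.50 (log2, SE, adjusted p = 2.29e-09). Tfcp2l1 (chr1:118627945-118685168), a factor of the naive network, went from 24 to 97 counts and from 34 to 214 counts (2.25 ± 0.24, adjusted p = 3.07e-12). L1td1, an RNA-binding protein of pluripotent cells, rose from 74.5 to 203 TPM and from 10.7 to 32.6 TPM. Klf5 stood at 16.7 and 9.08 TPM in OKS + DsRed and at 27.1 and 30.3 TPM in OKS + FoxO6 (adjusted p = 0.812). L1td1 lost the call with all 10 libraries (adjusted p = 0.0684). Nanog, Esrrb and Zfp42 were at or under 4 TPM in every library. Zfp296, a zinc finger gene of pluripotent cells chosen after its values were seen, went from 13 to 28 and from 4 to 27.6 counts. The octamer bound by Oct4 (ATGCAAAT) was in the promoters of 5 of the 125 rising genes with a promoter (4%), among them Zfp296 and Acsbg1, and in 1.18% of all promoters.

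Epithelial genes rose in part. Of 38 listed, 11 were tested, 4 rose, 1 fell and 6 had no call, with a median of 0.63. Since a gene near 0 on day 1 passes the filter on low counts only through day 3, these values are not read as support. Cdh1, E-cadherin, had 37 and 117 counts in OKS + DsRed and 2 and 10 counts in OKS + FoxO6 (1.74 ± 0.36, adjusted p = 0.000194). Per length, its level in OKS + FoxO6 was 3.35 TPM on day 1 and 2.55 TPM on day 3, so the direction in that arm differed between the scales. Spint2, an inhibitor of matriptase, rose from 45.9 to 116 TPM and from 14.6 to 26.3 TPM. Dsp, desmoplakin, rose from 45.6 to 69.6 TPM and from 19.3 to 34.0 TPM, and Jup, plakoglobin, from 188 to 282 TPM and from 136 to 210 TPM. Dsc2, a desmosomal cadherin, fell from 39.6 to 20.9 TPM and from 21.8 to 15.8 TPM. Several epithelial genes were at or near 0: Esrp1 was at 0 in all 4 libraries, and Grhl2, Rab25, Ovol1 and Cldn4 did not exceed 1.23 TPM. Each of the 4 rises lost the call with all 10 libraries (adjusted p = 0.063 for Cdh1, the lowest of the named ones), where 1 gene not tested with 4 libraries was called, and by DESeq2 none was.

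Several of the 12 largest rises were of genes outside the pathway lists. Trh (chr6:92242061-92244650), thyrotropin-releasing hormone, stood at 68.9 and 2467 TPM in OKS + DsRed and 25.8 and 447 TPM in OKS + FoxO6. The counts went from 69 to 2382 and from 28 to 576, and the rise was 4.76 ± 0.17 (log2, SE, adjusted p = 7.15e-41). The level was higher on day 3 in both arms. Clec3b, tetranectin, rose from 2 to 77 and from 1 to 29 counts, a ratio of 39.8 (95% interval of the counts 10.6 to 334) and 24.2 (4.01 to 989). Spock2, a secreted proteoglycan, went from 6 to 106 counts in OKS + DsRed and from 0 to 24 in OKS + FoxO6, which is at least 6.68-fold higher against 3 counts taken for the 0. Frem2, a basement membrane protein, went from 11 to 106 and from 0 to 27 counts, and was not called by DESeq2 (adjusted p = 0.112). Cacna2d2, a calcium channel subunit, went from 7 to 117 and from 4 to 38 counts. Myh2, a myosin heavy chain of fast skeletal muscle, went from 27 to 433 and from 6 to 72.5 counts, and its neighbour Myh1 from 105 to 361 and from 22 to 98.6; these paralogs share sequence, so the split of reads between them is uncertain. Of the 11 skeletal muscle markers, Myod1, Myog, Myf5 and Tnnt3 were at 0 in all 4 libraries. Des, desmin, fell from 11 to 1 and from 16 to 6 counts (adjusted p = 0.0465), a call lost with all 10 libraries (0.31) and without a value by DESeq2.

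Further rises were chosen after their values were seen. Acsbg1, an acyl-CoA synthetase, went from 28 to 252 and from 17 to 196 counts, which is 9.30-fold and 9.63-fold higher. Pcsk1n, an inhibitor of prohormone convertase, went from 73 to 409 and from 78 to 636 counts. Sox21, a relative of Sox2, went from 45 to 208 and from 44 to 228 counts (2.18 ± 0.20, adjusted p = 2.75e-15). Aldh1a1, which makes retinoic acid, went from 9 to 37 and from 11 to 93 counts. The acetyltransferase-like genes Nat8f3, Nat8f6 and Nat8f7, near-copies on chromosome 6, rose from 14 to 105, 0 to 18.4 and 0 to 49.3 counts in OKS + DsRed and from 3.77 to 39.2, 0 to 19.9 and 1.23 to 27.9 counts in OKS + FoxO6; reads may be divided among them. In the other direction A230087F16Rik, a transcript of unknown function, had 13.2 and 15.7 counts on day 1 and 0 in both arms on day 3, at least 4.25-fold and 6.26-fold lower.

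Interferon-stimulated genes such as Oasl2, Oas2 and Zbp1 rose in both arms. These genes are switched on by STAT and IRF factors after interferon or after sensing of viral nucleic acid, and encode antiviral enzymes, GTPases and antigen presentation. Of 32 type I response genes, 19 were tested, of which 16 rose and none fell, with a median of 1.72. Of 28 genes of the interferon gamma response and antigen presentation, 18 were tested, 15 rose and none fell, with a median of 1.65. Members near 0 on day 1 passed the filter on low counts only through day 3, so these shares and medians describe the members tested and are not read as support. The size was unequal: the median step was 2.17 and 2.23 in OKS + DsRed and 0.65 and 0.47 in OKS + FoxO6. Only 6 and 3 genes of these lists moved at least 2-fold in both arms. Whether the arms differ was not tested. The fit with all 10 libraries called 3 and 5 genes, and by DESeq2 3 and 1.

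Tgtp1 (chr11:48985327-48994172), an immunity-related GTPase, had 7 and 696 counts in OKS + DsRed and 0 and 17.4 counts in OKS + FoxO6, where the day 3 level was at least 4.85-fold higher. It had the highest fitted rise of the 12 largest (6.66 ± 0.36, adjusted p = 1.64e-28), and shares reads with its close copy Tgtp2. The fitted rise of Tgtp1 lies above the steps of both arms, 6.35 in OKS + DsRed and 3.01 in OKS + FoxO6. The SE does not cover the gap between these steps. Igtp and Irgm2, GTPases of the same family, overlap in the annotation and so divide reads. Igtp went from 2 to 194 and from 1 to 16 counts, and Irgm2 from 7 to 202 and from 9 to 30 counts. Oasl2 (chr5:114896936-114912234), an oligoadenylate synthetase-like protein, stood at 11.6 and 253 TPM in OKS + DsRed and 2.92 and 12.3 TPM in OKS + FoxO6 (4.62 ± 0.32, adjusted p = 1.68e-21). Its steps were 4.74 in OKS + DsRed and 2.34 in OKS + FoxO6. Oas2, which makes oligoadenylate on viral RNA, rose from 6.31 to 167 TPM and from 15.0 to 52.3 TPM, and Zbp1, a sensor of Z-form nucleic acid, from 23.4 to 157 TPM and from 6.30 to 24.3 TPM. Ifit1, which binds viral RNA, rose from 1 to 65 and from 5 to 16 counts, and Apol9a, whose reads may be shared with Apol9b, from 0 to 73.0 and from 2 to 12.6 counts. H2-T23, a non-classical class I molecule, rose from 4.56 to 70 and from 6 to 20 counts. Gbp3, a guanylate-binding protein, rose from 4.12 to 124 TPM in OKS + DsRed and stood at 10.2 and 17.2 TPM in OKS + FoxO6. Of these, Apol9a (adjusted p = 0.0784), Ifit1 (0.105), H2-T23 (0.0887) and Gbp3 (0.116) lost the call with all 10 libraries. DESeq2 did not call Oas2 (adjusted p = 0.38), Irgm2 (0.468), Apol9a (0.655), Ifit1 (0.699), H2-T23 (0.0876) or Gbp3 (0.958). Of the 12 macrophage markers, Cd68 alone was tested (-0.01, adjusted p = 0.996), Tyrobp, C1qa and C1qc were at 0, and their sum was 57.2 and 62.5 TPM in OKS + DsRed and 28.1 and 26.6 TPM in OKS + FoxO6. The ISRE core was in the promoters of 8 of 17 interferon gamma list genes (47.1%), 4 of 15 type I list genes (26.7%), 11 of 125 genes that rose in both arms (8.8%) and 2.5% of all promoters.

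Beside them, complement and acute phase genes rose in 5 cases and fell in 1 of 9 tested, among 18 listed. The limit of the filter on low counts holds here too, so the share and medians of this list are not read as support. Steap4, a metalloreductase, rose from 2 to 15 and from 10 to 58 counts (2.42 ± 0.51, adjusted p = 0.000243). Cd59a, an inhibitor of complement, rose from 7 to 31 and from 22 to 52 counts, and Serping1, the C1 inhibitor, from 25.5 to 144 TPM in OKS + DsRed beside 40.6 and 40.9 TPM in OKS + FoxO6. Lbp, which binds lipopolysaccharide, rose from 0 to 12 and from 36 to 77 counts. Among 10 chemokines and cytokines tested, Ccl7 (0.87) and Csf1 (0.57) rose and Il33 fell, from 29 to 3 and from 30 to 15 counts. With all 10 libraries Cd59a (adjusted p = 0.129), Serping1 (0.372) and Lbp (0.314) lost the call, as did the cytokines, and Steap4 kept it (0.0197). DESeq2 called none of the complement list (Steap4 adjusted p = 0.244) and no cytokine. The median step of the complement list was 1.51 in the DsRed arm and 0.12 in the FoxO6 arm.

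**Figure D3:**
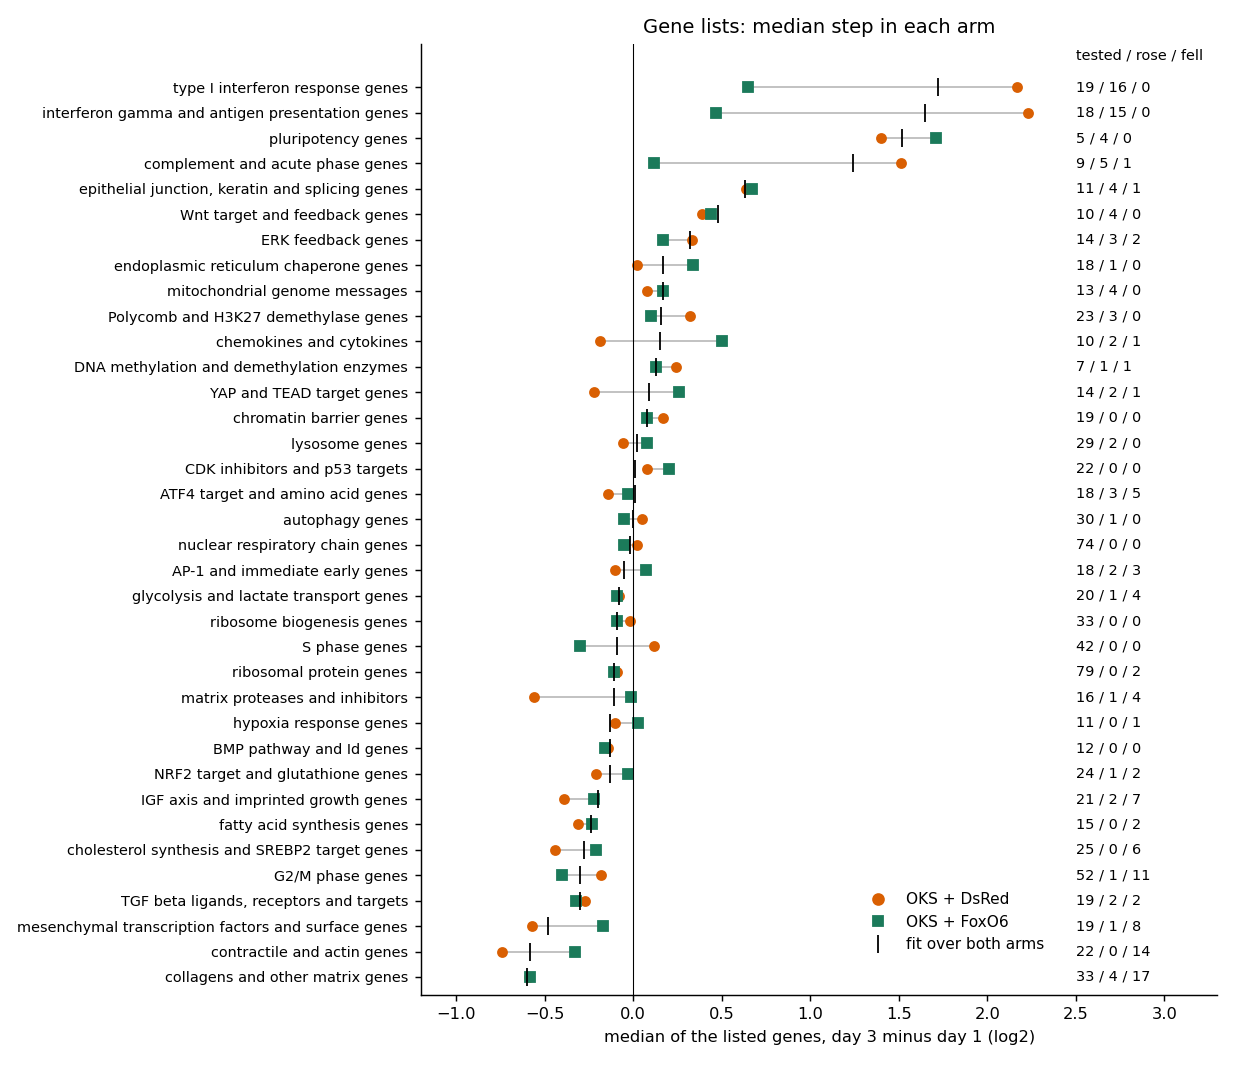
Median step of each gene list in OKS + DsRed (orange circles), in OKS + FoxO6 (green squares) and in the fit over both arms (black bars), in log2, for pathway lists with at least 5 genes tested (cell type marker lists are not drawn). Numbers at the right are the genes tested, risen and fallen; matrix genes lie lowest of the lists shown at -0.60 and type I interferon genes highest at 1.72.

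Of 10 Wnt target and feedback genes tested among 18 listed, 4 rose and none fell, with a median of 0.48. A listed gene near 0 on day 1 passes the filter on low counts only through day 3. This share and median therefore describe the genes tested and are not read as support. Nkd1, an inhibitor of Dishevelled, rose from 3 to 41 and from 3 to 18 counts (3.14 ± 0.61, adjusted p = 6.13e-05), and Notum, which inactivates Wnt ligands, from 10 to 67.6 and from 2 to 34 counts (3.06 ± 0.44, adjusted p = 6.91e-08). Axin2, the common feedback target, rose from 21 to 63 and from 32 to 48 counts, and Apcdd1 from 38.1 to 93.6 TPM in OKS + DsRed beside 38.2 and 41.4 TPM in OKS + FoxO6. With all 10 libraries Nkd1 alone was called, and by DESeq2 Notum alone. Egr1, an immediate early factor, fell by 1.24 ± 0.16 (adjusted p = 3.02e-09), from 96.8 to 44.5 TPM and from 208 to 84.6 TPM. Fosl1 (-1.06) and Klf6 (-0.68) fell too, while Btg2 (0.86) and Jund rose, among 18 immediate early genes tested. Of 14 feedback genes of ERK, Dusp6 (0.56) and Spry2 (0.57) rose with Etv5, and Dusp4 (-0.57) and Phlda1 (-0.81) fell. In the TGF beta list, Inhba (-1.41), the activin subunit, and Tgfbi (-1.02) fell and the receptor Tgfbr2 (0.42) and its inhibitor Ski (0.44) rose, of 19 tested. Among YAP and TEAD targets Nuak2 (1.25), a kinase, and Dock5 (0.52) rose and the receptor Axl (-0.39) fell, of 14. The shares over all genes tested were 5.48% risen and 4.22% fallen, and a few calls in a list are not read as a change of that list. None of 12 BMP pathway genes was called by edgeR with 4 or 10 libraries or by DESeq2, and 1 rose and 1 fell at an unadjusted p under 0.05. Bmpr2, Bmpr1a, Bmp1 and Smad5 had the most counts of these, with changes between -0.27 and 0.28. Vegfa, the ligand of Flt1, fell from 75 to 37 and from 30 to 8 counts (-1.35 ± 0.34, adjusted p = 0.00283), the only call among 11 hypoxia response genes. Except for Nkd1, each gene called in this paragraph lost the call with all 10 libraries (Vegfa adjusted p = 0.416, Egr1 0.219).

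Genes of the cell cycle were called in the G2/M list and not in the S phase list. Of 52 G2/M genes tested, 11 fell and 1, Gas2l3, rose, with a median of -0.30; 33 were lower and 2 higher in both arms. Nek2, a centrosome kinase, fell by 0.92 ± 0.27 (adjusted p = 0.0138), from 28.4 to 19.2 TPM and from 29.2 to 12.6 TPM. Cdc20, which activates the anaphase-promoting complex, fell from 194 to 95.5 TPM and from 111 to 75.2 TPM. Hmmr and Aurka, of the mitotic spindle, fell by 0.87 and 0.85. No G2/M gene was called with all 10 libraries or by DESeq2. Of 42 S phase genes none was called by these fits, and 2 fell at an unadjusted p under 0.05; Rrm1, Rrm2, Mcm6 and Mcm7, those with the most counts, changed by -0.35, -0.29, -0.30 and -0.04. Their list moved in opposite directions in the arms (0.12 and -0.30). None of 22 CDK inhibitors and p53 targets was called by these fits, with 4 higher and 1 lower at an unadjusted p under 0.05. Cdkn1a (p21) stood at 860 and 791 TPM in OKS + DsRed and 747 and 933 TPM in OKS + FoxO6. Ccng1, Mdm2 and Trp53inp1 changed by -0.14, -0.33 and 0.24.

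Ldha, lactate dehydrogenase, fell by 0.78 ± 0.13 (adjusted p = 6.54e-06), from 563 to 345 TPM and from 572 to 315 TPM. Eno1 (-0.44) and Pkm (-0.36) fell among the 20 glycolysis genes tested, of which 4 fell and 1, Eno2 (1.10), rose. None of the 74 nuclear genes of the respiratory chain was called by edgeR with 4 or 10 libraries or by DESeq2, with 1 higher and 3 lower at an unadjusted p under 0.05. Atp5b, Atp5a1, Sdha and Ndufa4 changed by -0.05, 0.01, 0.08 and -0.21. Of 13 messages of the mitochondrial genome 4 rose: mt-Nd4 (0.29), mt-Nd2 (0.28), mt-Cytb (0.26) and mt-Nd3 (0.51), the last with a step of 1.24 in the DsRed arm and of -0.11 in the FoxO6 arm. The share of counts on mitochondrial genes was 3.66% and 3.96% in OKS + DsRed and 3.92% and 4.27% in OKS + FoxO6. Of 25 genes of cholesterol synthesis and uptake 6 fell and none rose. The enzymes Msmo1, Fdps, Nsdhl, Idi1 and Hsd17b7 fell by 0.75, 0.74, 0.66, 0.61 and 0.53. Me1 (-0.67) and Fads2 (-0.59) fell among 15 fatty acid genes. Phgdh (-1.23) and Slc7a5 (-0.82) fell while Ddit4 (1.11) and Cth (0.99) rose among 18 ATF4 targets, 5 of which fell and 3 rose. Mgst1 (0.93), a glutathione transferase, rose and Txn1 (-0.71) and Tkt (-0.56) fell among 24 NRF2 targets. Beside 5.48% of all genes tested that rose and 4.22% that fell, the few calls in such lists are not read as a change of the list. With all 10 libraries only Ddit4 (adjusted p = 0.035) and Mgst1 (0.0391) were called of the genes of this paragraph. DESeq2 called Mgst1 (adjusted p = 0.0128) and Ldha (0.0211) but not Ddit4 (0.174).

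Of 79 ribosomal protein genes 2 fell, Rps2 by 0.41 and Rps23 by 0.48, with a median of -0.11. Over all genes tested 4.22% fell, so these 2 calls are not read as a change of the list. None of 33 ribosome biogenesis genes was called by edgeR or DESeq2, and 2 were lower at an unadjusted p under 0.05; Npm1, Ncl, Mybbp1a and Ddx21 changed by -0.17, -0.11, -0.17 and 0.06. Calr (0.40) rose alone among 18 chaperones of the endoplasmic reticulum, beside 5.48% of all genes tested that rose. Among 23 Polycomb genes tested, Jarid2, which recruits the PRC2 complex, rose by 1.07 ± 0.23 (adjusted p = 0.000294), from 56 to 135 and from 47 to 98 counts, and Phc1 (0.69) and the demethylase Kdm6b (0.65) rose as well. Tet2, an enzyme that oxidises methylated cytosine, rose by 0.58 and Uhrf2 fell by 0.63, among 7 genes of DNA methylation. None of 19 genes described as chromatin barriers to reprogramming was called or had an unadjusted p under 0.05 by edgeR, and DESeq2 called none. Chd4, Trim28, Ehmt2 and Sumo2 changed by between -0.09 and 0.08. Of 29 lysosome genes 2 rose, among them the hydrolase Man2b1 (0.64), and Optn (0.77), a receptor of selective autophagy, was the only call among 30 autophagy genes. Over all genes tested 5.48% rose, so so few calls are not read as a change of these lists. Each gene named as called in this paragraph lost the call with all 10 libraries.

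Markers of other cell types were measured too, and their part in the results above was not tested. Of 10 endothelial markers, Emcn and Cldn5 were at 0 and Pecam1 and Cdh5 at or under 1.24 TPM. Flt1 fell, Tek, the angiopoietin receptor, rose from 21.9 to 45.7 TPM and from 54.2 to 92.9 TPM, and Kdr stood at 10.8 and 8.18 TPM in OKS + DsRed and 10.6 and 44.6 TPM in OKS + FoxO6. Neural markers summed to 640 and 382 TPM in OKS + DsRed and 225 and 108 TPM in OKS + FoxO6, and Stmn2 (-1.11), Tubb3 (-1.14) and Map2 (-0.85), which encode proteins of microtubules, fell. None of 8 trophoblast markers was tested, and their sum did not exceed 7.21 TPM. Of the primitive endoderm markers Dab2 (-0.83) fell, and of the cartilage markers Col11a1 (-0.68). Of the calls in this paragraph Flt1 alone was kept with all 10 libraries (adjusted p = 0.329 for Stmn2, 0.29 for Tubb3, 0.548 for Map2, 0.0829 for Tek, 0.225 for Dab2 and 0.352 for Col11a1). The 9 keratinocyte markers summed to 30.5 and 28.7 TPM in OKS + DsRed and 12.5 and 8.71 TPM in OKS + FoxO6, and neither Sfn (-0.68, adjusted p = 0.604) nor Krt6a (-0.33, 0.884) was called.

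The 6 libraries of days 0, 5 and 7 took no part in the choice of these genes. Between day 0 and day 7, 8.93% of 11418 genes tested rose and 7.94% fell. Of the 179 genes that rose at least 2-fold from day 1 to day 3, 164 were tested there, and 143 (87.2%) rose and none fell. Of the 88 that fell, 81 were tested, and 74 (91.4%) fell and none rose. By direction alone 161 of the 164 were higher and 79 of the 81 lower. Genes near 0 on day 0 pass the filter on low counts only through the later day, and those near 0 on the later day only through day 0, so these shares describe the genes tested and are not read as support. Between day 0 and day 5, which share the day 0 libraries with the former comparison, 14.2% of the genes tested rose and 12.6% fell. There 162 of 175 rose and none was called lower, and 76 of 82 fell and none was called higher. By direction alone 172 of the 175 were higher and 3 lower, and the 82 were lower. The median level of the 179 genes in OKS + DsRed was 1.84, 3.09, 5.14, 5.56 and 5.21 (log2(TPM + 1)) on days 0, 1, 3, 5 and 7, and in OKS + FoxO6 2.27, 2.85, 4.61, 5.31 and 5.23. The 88 genes stood at 5.78, 4.84, 3.25, 2.97 and 2.71 in OKS + DsRed and at 5.26, 4.73, 3.20, 3.16 and 2.78 in OKS + FoxO6. The days 1 and 3 of these courses are the values that chose the genes.

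**Figure D4:**
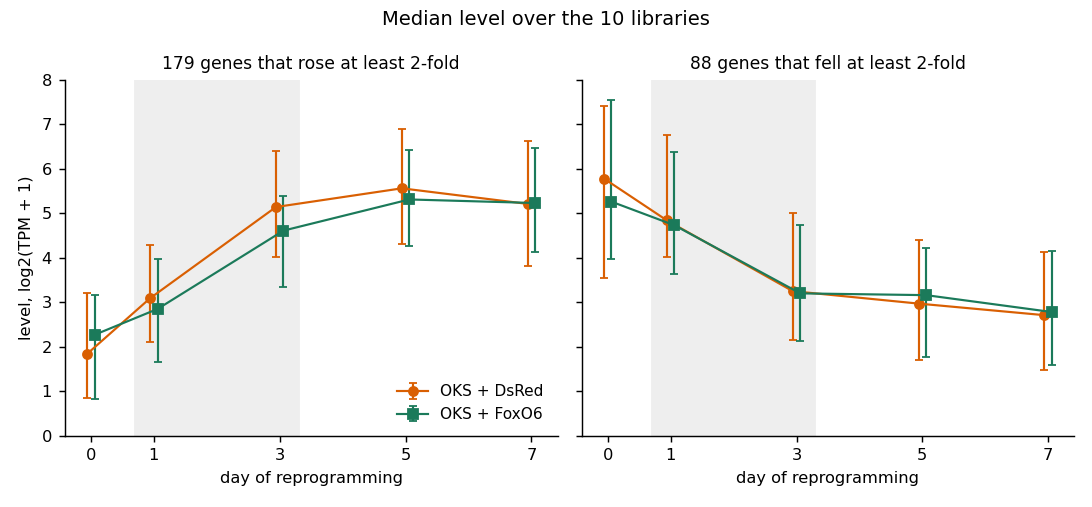
Median level, as log2(TPM + 1), of the 179 genes that rose (left) and the 88 that fell (right) at least 2-fold in both arms, by day; bars span the quartiles. The shaded step from day 1 to day 3 chose the genes; the medians before and after it lie on the same sides, at 1.84 on day 0 and 5.21 on day 7 for the rising genes in OKS + DsRed.

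Single genes followed different courses outside the step. Tagln was at 1205 and 1307 TPM on day 0 in OKS + DsRed and OKS + FoxO6, against 95.1 and 97.7 TPM on day 1. Thy1 was at 298 and 347 TPM on day 0 and at 17.3 and 18.7 TPM on day 7, against 23.7 and 20.3 TPM on day 3. Igf2 went on falling, to 11.4 TPM in OKS + DsRed and 71.1 TPM in OKS + FoxO6 on day 7. Tdh was at 0 in both day 0 libraries and at 247 and 128 TPM on day 7. Trh reached 2508 and 2610 TPM on day 7, with 1 library each. Cdh1 reached 201 and 28.9 TPM on day 7 (day 7 minus day 0 over both arms 5.73, adjusted p = 2.96e-27). Oasl2 was at 528 and 150 TPM on day 5 and at 253 and 162 TPM on day 7.

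**Figure D5:**
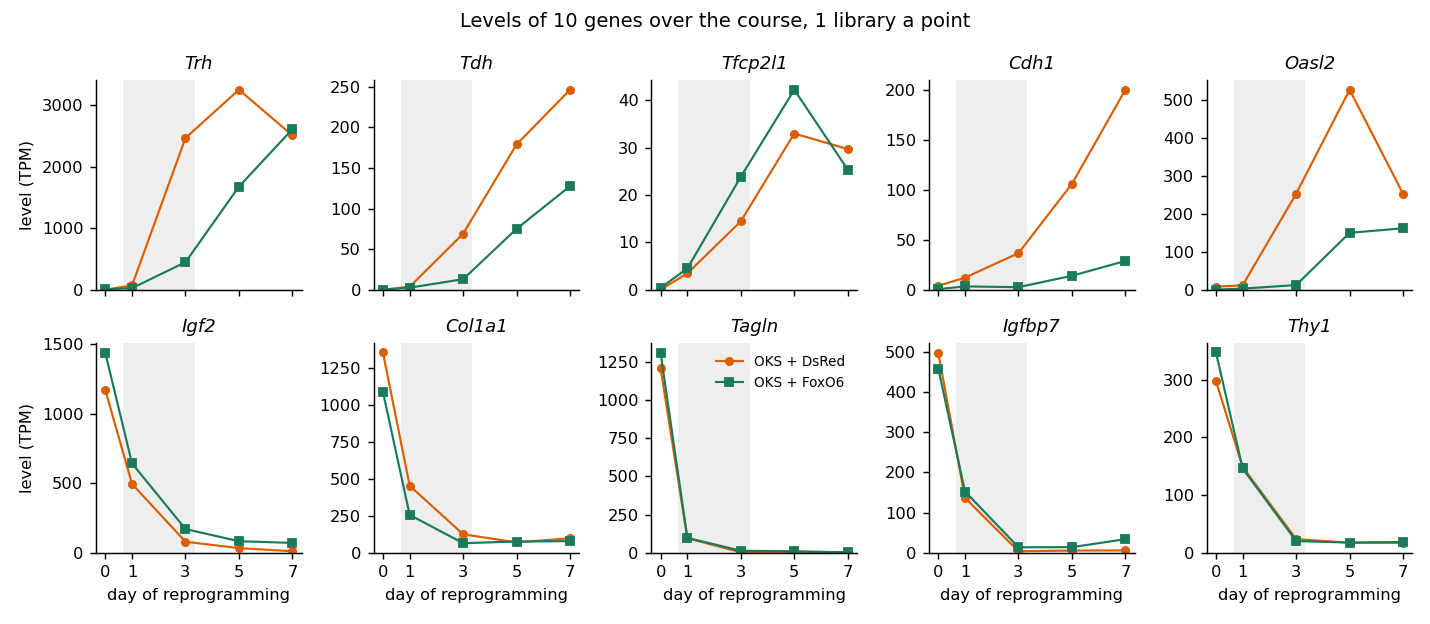
Level in TPM of 5 genes called as risen (top) and 5 as fallen (bottom) from day 1 to day 3, by day in OKS + DsRed (orange circles) and OKS + FoxO6 (green squares), 1 library a point, each panel with its own scale from 0. On this scale Cdh1 in OKS + FoxO6 was lower on day 3 (2.55 TPM) than on day 1 (3.35 TPM). Trh ends at 2508 and 2610 TPM, and Tagln starts at 1205 and 1307 TPM.

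Over the promoters, the 16 motifs searched on both strands were AP-1 (TGACTCA), CRE (TGACGTCA), the E-box of Zeb and Snail (CACCTG), the E-box of Myc and USF (CACGTG), the box of NF-Y (CCAAT), E2F (TTTCGCGC), TEAD (CATTCC), the octamer, KLF (CCACACCC), forkhead (TGTTTAC), GAS, the ISRE core, RUNX (TGTGGT), SMAD (GTCTAGAC), the TATA box (TATAAA) and the CHR of cell cycle genes (TTTGAA). The CACCTG box, to which the mesenchymal repressors Zeb and Snail bind, was in 17.6% of the promoters of rising genes, 21.7% of those of falling genes and 13.7% of all. A TATA box was in 14.4%, 10% and 5.76%, and a GAS in 9.6%, 0% and 5.72%. CHR was in 15.2%, 1.67% and 10.2%, and the CACGTG box of Myc and USF in 4.8%, 1.67% and 8.79%. AP-1 sites were in 4%, 5% and 2.7%, TEAD sites in 15.2%, 8.33% and 10.2%, and forkhead sites in 0.8%, 5% and 1.96%. Promoters were found for 125 of the 179 rising genes, 60 of the 88 falling genes and 75.9% of all genes tested, so these shares describe only the genes with an entry.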

How the data were processed

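RNA-seq was deposited for 10 libraries, 1 per arm and day, with no replicate cultures. The authors aligned reads to mm10 with Bowtie2 and estimated expected counts and TPM per gene with RSEM (GENCODE M13); both were deposited. Of the 4 libraries' expected counts, 4.86% were not whole, and they were rounded for the fits. Day 3 was compared with day 1 by edgeR 4.0.16 (quasi-likelihood, TMM, R 4.3.3, filterByExpr) on 4 libraries with arm as block and Benjamini-Hochberg adjustment at 0.05. The residual degrees of freedom were 1 and the common dispersion 0.0157. The steps of each arm use a prior count of 2. The fitted changes and the ratios of counts do not, so a fitted change can lie above the steps of both arms. An expected count of 0 was set to 3 counts for a bound. Ratio intervals cover counting error only.

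On simulated data of 10852 genes for this comparison, 61 of 100 genes changed 2-fold, 100 of 100 changed 4-fold and 7 of 10652 unchanged genes were called. Both simulated arms had the same levels and steps, and all genes had the same dispersion of 0.0157. The changed genes had a mean of at least 20 counts. The real arms differ, and the common dispersion was 0.0362 with all 10 libraries, so these counts do not give the error rate of the real calls. Named genes were the 12 largest rises and falls among genes moved 2-fold in both arms with a mean of at least 20 counts, the transduced factors, and up to 4 genes a list (the called ones of largest change, or those of most counts where none was called); others are said to be chosen after their values were seen. The members and lists were chosen with earlier results of these data known. Alternatives were DESeq2 1.42.0, other scalings and filters, all 10 libraries, no block for the arm, TPM with a pseudocount, and each library left out. Promoters came from RefSeq (GRCm38.p6). Whether the library numbers pair cultures was not tested, as each arm and day is 1 library. A few genes of the lists are not reported here, though they are in the counts.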

Additional observations from a re-analysis of the deposited data

Results flagged for a closer look

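In 12 gene lists, and in 2 of the called genes that the text names, the step from day 1 to day 3 went in opposite directions in the arms; over all genes called there were 14. These differences were not tested, since each arm and day is 1 library. List medians (log2, OKS + DsRed and then OKS + FoxO6) were -0.22 and 0.26 for YAP and TEAD targets, and -0.10 and 0.07 for AP-1 and immediate early genes. They were 0.12 and -0.30 for S phase genes and 0.02 and -0.05 for nuclear respiratory chain genes. Hypoxia response genes had medians of -0.10 and 0.03, and chemokines and cytokines -0.19 and 0.50. Lysosome genes had -0.06 and 0.08, and autophagy genes 0.05 and -0.05. Among cell type markers the medians were -0.18 and 0.22 for macrophage, where 1 gene was tested, and -0.39 and 0.75 for endothelial. Cartilage markers had -0.76 and 0.01, and primitive endoderm markers 0.33 and -0.05. The step of mt-Nd3 was 1.24 in OKS + DsRed and -0.11 in OKS + FoxO6. The step of Kdr was -0.39 in OKS + DsRed and 2.01 in OKS + FoxO6.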

How the results depend on the processing

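The counts of rises and falls (605 and 466) were 97 and 71 by DESeq2, 100 and 54 with all 10 libraries, and 0 and 0 with no replicate block, that is without the pairing of libraries by arm. With 1 library left out they ranged from 1 to 95 for rises and from 1 to 16 for falls; in those fits an arm has 1 library of the 2 days, and its spread was taken from the other 9 libraries. Genes moved 2-fold in both arms (179 and 88) were 75 and 36 by DESeq2, 74 and 41 with all 10 libraries, 0 and 0 with no replicate block, and 55 and 33 when called by all 3 fits, an alternative added after seeing the data. Of 136 named genes called, 50 of 133 with a value were still called by DESeq2, 53 with all 10 libraries and 0 with no replicate block. With 1 library left out, mt-Nd3 ranged from -0.15 (without OKS + DsRed day 1, adjusted p = 0.972) to 1.27, and Kdr from -0.76 (without OKS + FoxO6 day 1, adjusted p = 0.899) to 2.27. With log2(TPM + 1) the list medians became 0.17 for transduced factors, 0.60 epithelial, -0.52 matrix, -0.22 TGF beta, -0.18 BMP, 0.53 Wnt, -0.09 ribosomal protein, -0.10 glycolysis and 0.21 DNA methylation. With all 10 libraries they were 0.15 for transduced factors, -0.61 matrix and -0.15 BMP, and TGF beta was -0.12 at a mean TPM of at least 5. The cause was not tested. Depth, at most 1980942 counts a library here, limits what can be seen of low genes.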
